A study of Sus scrofa with 7 samples.

Results

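The 10 genes examined here encode proteins of the outer cell membrane that are used to recognize or sort stem cells: PODXL, EPCAM, CD9, CD24, PROM1, ALPL, THY1, DPP4, CD44 and CXCR4. They were picked by name from 29510 genes listed for RNA sequencing of porcine cell lines. Of these, 8 were listed under their current symbols, EPCAM was listed under its older symbol TACSTD1 and THY1 under CD90. EPCAM was matched through its Ensembl gene, ENSSSCG00000008429, and THY1, ENSSSCG00000015122, through CD90 as a RefSeq synonym. All 10 were among the 17447 genes with enough reads to be tested, DPP4 only through its reads in pXEN cells.

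The study asked how porcine extraembryonic endoderm (pXEN) cells differ from porcine embryonic stem cells (ESCs) of the naïve-like and the primed state. There were 3 pXEN lines, at passages 26, 26 and 23, 2 naïve-like ESC lines (nESC), at passages 21 and 22, and 2 primed ESC lines (pESC), both at passage 20, with 1 library for each line. The pXEN lines came from inner cell masses of day-6 parthenogenetic blastocysts and grew on mouse embryonic fibroblasts with LIF, CHIR99021, (S)-(+)-dimethindene maleate, minocycline and Y27632. The naïve-like lines, also from inner cell masses, were kept on mouse embryonic fibroblasts with FGF, LIF, PD0325901, CHIR99021, SB431542 and doxycycline. The primed lines grew on STO feeder cells with activin A, bFGF, EGF and LIF, so cell type and culture medium cannot be told apart. Their sample labels call them converted from naïve-like ESCs, while the paper proposes that primed ESCs can come from inner cell masses. Each line counts as 1 replicate, so that p-values measure the spread between lines. The parent of each primed line is not given in the sources used here, so any shared origin of lines is not taken into account.

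The libraries held 10408164 to 12995720 reads assigned to genes. The limit of detection, set at 3 counts, corresponded to 0.231 to 0.288 CPM (counts scaled by the library total) and covers counting error only. Of the 6 endoderm genes checked (GATA4, GATA6, SOX17, HNF4A, FOXA2 and SOX7), 5 had more than 3 counts in every pXEN library, where the list summed to 26607 to 32032 counts, against 352 to 452 in the ESC libraries. Of 7 listed pluripotency genes, ESRRB had 0 counts in the pXEN lines, 26 and 17 in the naïve-like and 840 and 923 in the primed lines, and UTF1 had 4, 21 and 3, then 0 and 1, then 1828 and 2043. POU5F1, the gene of OCT4, had at most 5 counts in any library, and ZFP42 had 0 in all of them. NANOG was highest in the pXEN lines, with 177, 60 and 166 counts, against 0 and 2 in the naïve-like and 21 and 22 in the primed lines. The paper reports the reverse for NANOG in pXEN against naïve-like cells, by immunofluorescence, PCR and Western blot. TDGF1 had 95, 106 and 143 counts in the pXEN lines, 0 in both naïve-like and 283 and 305 in the primed lines. SOX2 had 0, 30 and 0 counts in the pXEN lines, 1633 and 1940 in the naïve-like and 2452 and 2729 in the primed lines. Of 5 listed trophectoderm genes, 4 had more than 3 counts in both primed lines and 3 in both naïve-like lines. In the pXEN lines 2, 1 and 2 of them did. The list summed to 1824 and 1742 counts in the primed lines, mostly TFAP2C with 1553 and 1519, against 14 to 106 elsewhere. ELF5 went the other way, with 10, 3 and 6 counts in the pXEN lines and 0 in all ESC lines. The library of pXEN line 2 stood apart from the other pXEN libraries. It held 8168 counts of 13 fibroblast genes, against 867 and 1532 in pXEN lines 1 and 3. The primed lines held 6105 and 7251 such counts and the naïve-like lines 4070 and 5445. Line 2 also held 38 counts on chromosome Y, against 1 and 3 in the other pXEN lines and 0 to 11 in the ESC lines. Values that rest on it are given with and without it.

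Most of these antigens mediate adhesion or organize the membrane. PODXL is a sialomucin that carries epitopes used to recognize human pluripotent cells, EPCAM is an epithelial adhesion molecule, and CD24 is a small glycosylphosphatidylinositol-anchored glycoprotein. CD9 is a tetraspanin, PROM1 marks membrane protrusions, ALPL is the tissue-nonspecific alkaline phosphatase behind the classical stem cell stain, and DPP4 is a surface peptidase. CXCR4 is the receptor of the chemokine CXCL12, CD44 binds hyaluronan, and THY1 is a glycosylphosphatidylinositol-anchored protein of fibroblasts, neurons and human pluripotent cells.

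Most of these transcripts were present in all 3 cell types and differed between them in level. PODXL, EPCAM and CD24 were highest in pXEN cells, CD9 and PROM1 were lowest there, and ALPL, CXCR4 and CD44 were highest in primed ESCs. CXCR4 was also called lowest in pXEN cells, but its pXEN and naïve-like lines overlapped and that call was lost in 8 of 16 other settings. PODXL, EPCAM and ALPL were lowest in the naïve-like ESCs. The test was edgeR's quasi-likelihood test, its p adjusted over all tested genes after Benjamini and Hochberg, and a difference was called at an adjusted p below 0.05. Between pXEN cells and naïve-like ESCs, 8 of the 10 members were called, 5 higher and 3 lower in pXEN cells, where 54.5% of all tested genes were called (28.3% higher and 26.2% lower). DPP4, which passed the filter on low counts only through pXEN reads, is 1 of the 5, and without it 7 of 9 members were called, 4 higher and 3 lower. Between pXEN and primed cells, 8 were called, 3 higher and 5 lower in pXEN cells, against 48.3% of all genes (23.9% higher and 24.4% lower). Between primed and naïve-like ESCs, 5 were called, all higher in the primed state, against 32.2% of all genes called and 19.0% called higher. The 3 comparisons share libraries and are not independent of each other.

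Calls were frequent among all genes, so the sizes of the differences are given as well. The median absolute log2 fold change of the 10 genes was 3.67 for pXEN against naïve-like cells, 2.85 for pXEN against primed cells and 2.14 for primed against naïve-like cells, while that of all tested genes was 0.81, 0.67 and 0.55. With DPP4 set at its lower bound, the first of these medians was 2.63. Without DPP4, whose primed level rested on 1 count, the 3 medians were 3.64, 2.21 and 2.09. The signed medians of the members were 1.18, −0.39 and 2.14, or 0.74, −1.48 and 2.09 without DPP4, and those of all genes lay within 0.012 of 0. The libraries of the 2 groups did not overlap for 8, 9 and 7 members in these comparisons, or 7, 8 and 7 without DPP4, whose gap rested on single reads, and for 70.9%, 68.1% and 72.5% of all genes. By adjusted p, pXEN cells were above both ESC types for 3 members (18.1% of all genes) and below both for another 3 (15.5%), the naïve-like cells were below both for 3 (12.0%), and the primed cells were above both for 3 (7.93%), with some members in more than 1 of these patterns. The naïve-like cells were above both other types for 0 members (8.67% of all genes) and the primed cells below both for 0 (4.26%). PODXL, EPCAM, ALPL and CXCR4 were called in all 3 comparisons (4 members, 13.2% of all genes), and 9 of the 10 members, or 8 without DPP4, were called in at least 1 (68.6%).

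**Figure D1:**
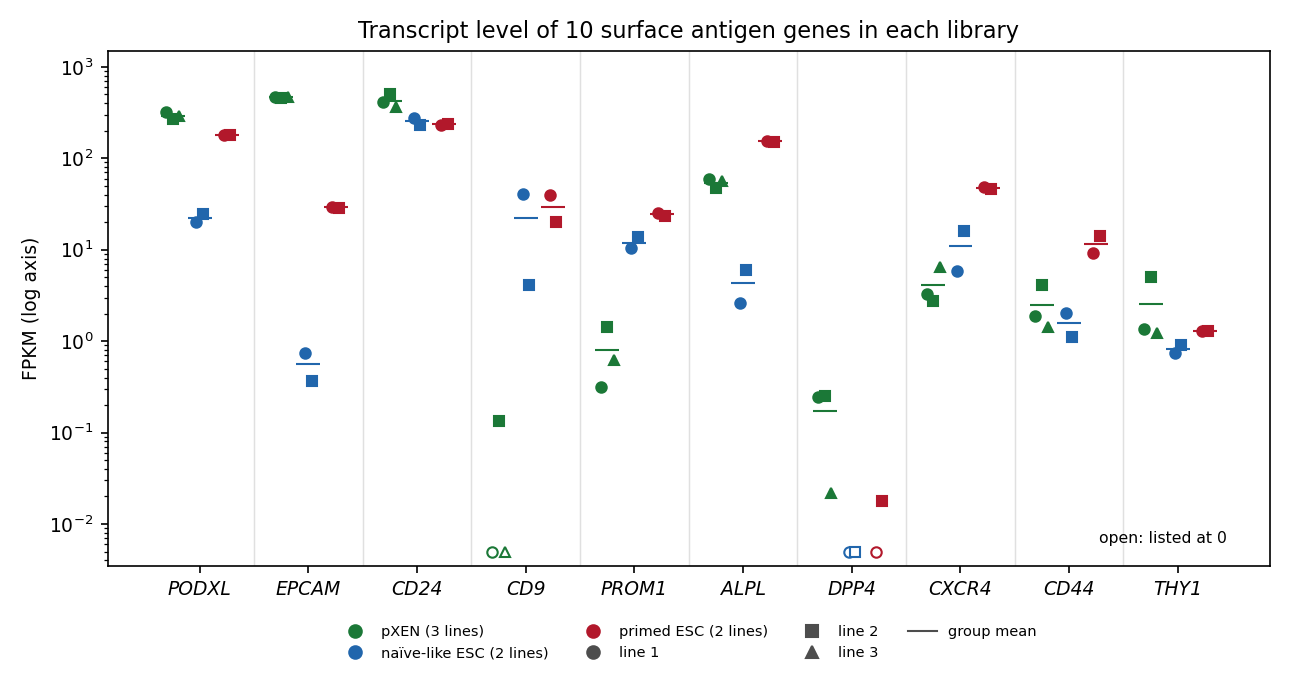
FPKM of the 10 surface antigen genes in each of the 7 libraries on a log axis, with green for pXEN, blue for naïve-like and red for primed ESC lines, symbols for the line number and short bars for group means. Open symbols at the bottom are libraries where the gene was listed at 0. EPCAM averages 467 FPKM in pXEN cells and 0.556 in naïve-like ESCs, while CD24 lies between 230 and 502 FPKM in all libraries.

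**Figure D2:**
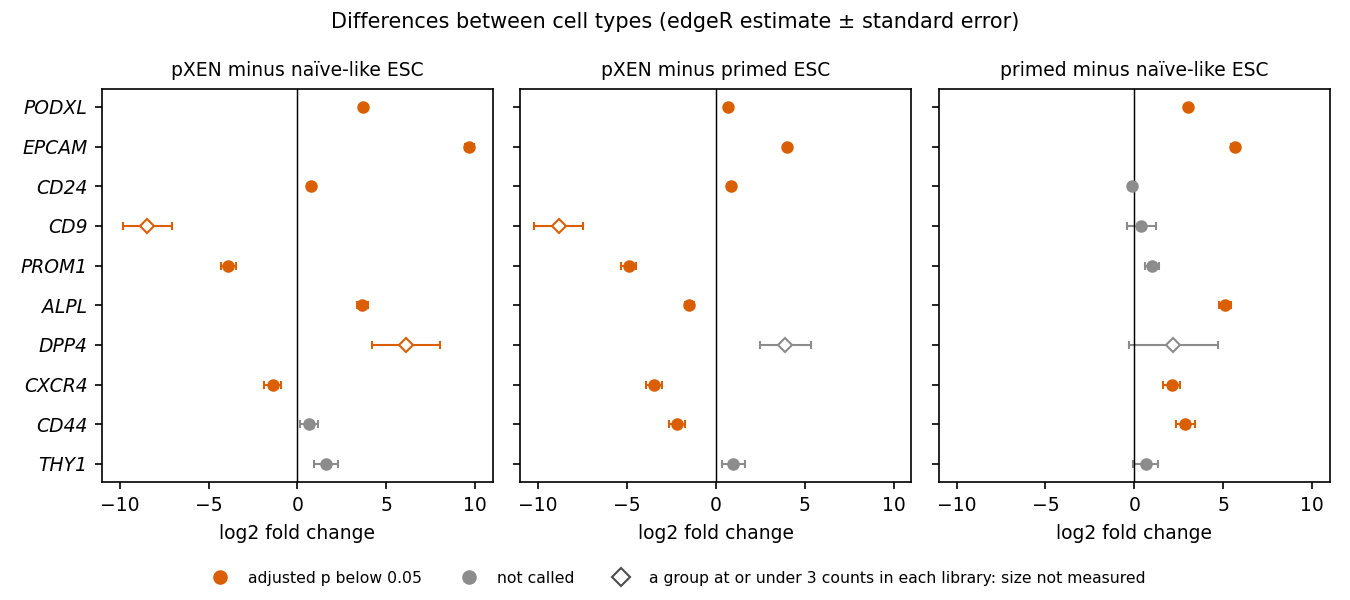
Log2 fold change of each gene in the 3 comparisons, estimated by edgeR, with bars of 1 standard error. Orange marks an adjusted p below 0.05, grey marks genes not called, and open diamonds mark genes whose counts were at or under 3 in every library of a group, so that the size of the difference was not measured. All 5 calls between primed and naïve-like cells lie to the right of 0.

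EPCAM showed the widest contrast of the members with reads in every library. It reached 473, 458 and 471 FPKM in the 3 pXEN lines in order, and 29.3 and 28.6 FPKM in the primed lines, but only 0.749 and 0.363 FPKM in the naïve-like lines. FPKM here means read counts scaled by the listed gene length and by a total for each library. The 3 cell types did not overlap, and in the pXEN libraries EPCAM ranked between 151 and 170 among all listed genes, against 3012 and 3173 in the primed and 15042 and 16637 in the naïve-like libraries. The naïve-like values rested on 15 and 7 counts, above the limit of 3. In pXEN cells the level was 823-fold that of naïve-like ESCs (log2 fold change 9.69, SE 0.23, adjusted p = 2.72e-07) and 16.2-fold that of primed ESCs (4.02, SE 0.16, adjusted p = 2.15e-06). Primed cells exceeded naïve-like cells 50.8-fold (5.67, SE 0.22, adjusted p = 4.87e-06). Without the first naïve-like line the log2 fold changes over naïve-like cells were 10.3 for pXEN and 6.28 for primed cells. In a bulk library, fewer cells with a transcript and less transcript per cell cannot be told apart. EPCAM, ENSSSCG00000008429, lies on the minus strand of chromosome 3, at 99312715 to 99328503 of Sscrofa10.2, the build used for all positions here.

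PODXL was abundant in pXEN and primed cells and low in naïve-like ESCs. Its levels were 318, 269 and 287 FPKM in the pXEN lines, 20.0 and 24.6 in the naïve-like lines, and 179 and 182 in the primed lines. Each group lay apart from the others, with means ± SD of 291 ± 24.5 (n = 3), 22.3 ± 3.25 (n = 2) and 180 ± 1.90 FPKM (n = 2). The log2 fold change was 3.70 (SE 0.14, adjusted p = 1.25e-06) for pXEN over naïve-like cells, 0.70 (SE 0.12, adjusted p = 0.00241) for pXEN over primed cells, and 3.00 (SE 0.14, adjusted p = 1.02e-05) for primed over naïve-like cells. PODXL, ENSSSCG00000016548, lies on the plus strand of chromosome 18 at 18531185 to 18581935.

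CD24 was the one member at a high level in every library. It stood at 412, 502 and 359 FPKM in the pXEN lines, 276 and 230 in the naïve-like lines, and 232 and 238 in the primed lines, and its rank among all listed genes was between 156 and 271 throughout. The pXEN lines were all above the ESC lines, whose 2 types overlapped. The log2 fold change was 0.74 (SE 0.16, adjusted p = 0.00488) over naïve-like and 0.86 (SE 0.16, adjusted p = 0.00292) over primed cells, and primed and naïve-like cells differed by −0.12 (SE 0.17, adjusted p = 0.635). CD24 (ENSSSCG00000031023, chromosome 1, plus strand, 82268709 to 82273291) has processed copies in human and mouse, and how reads shared between copies were counted is not given in the sources used here, so reads of such copies could be part of its level.

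CD9 was nearly absent from pXEN libraries. Its listed row with the most reads, ENSSSCG00000000710, gave 0, 1 and 0 counts for the 3 pXEN lines in order, 320 and 31 for the naïve-like lines, and 322 and 175 for the primed lines. The naïve-like lines, at 40.7 and 4.09 FPKM, differed more between themselves than from the primed lines, at 39.3 and 20.0, and the latter lay between them. By summed counts the naïve-like cells were 479-fold (95% exact counting interval 85.3 to 18950) and the primed cells 612-fold (109 to 24240) above pXEN cells, and both differences were called (adjusted p = 0.0013 and 0.00118). The 1 pXEN read was in line 2, and without that line CD9 was at least 50.5-fold higher in naïve-like and at least 66.5-fold higher in primed cells. Without the first naïve-like line the ratio for the naïve-like cells was 86.4 (14.4 to 3520), and without the second 854 (152 to 33840). The log2 fold change of primed over naïve-like cells was 0.39 (SE 0.82, adjusted p = 0.756). Without the first naïve-like line it was 2.84 (adjusted p = 0.0281), and without the second −0.47 (adjusted p = 0.531).

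A second row carries the name CD9, ENSSSCG00000022230, 56751 bases from the first on chromosome 5, where the first spans 66976092 to 66989641 on the minus strand. It had 0 counts in all 3 pXEN libraries, 103 and 74 in the naïve-like lines and 212 and 235 in the primed lines. Its primed lines were both above the naïve-like lines, unlike those of the first row (log2 fold change 1.19, SE 0.30, adjusted p = 0.0276). With 3 counts per pXEN library as the limit, it was at least 26.6-fold higher in naïve-like and at least 60.9-fold higher in primed cells than in pXEN cells. The 2 rows thus gave the same order of pXEN cells against ESCs. For primed over naïve-like cells both estimates were positive and only that of the second row was called. With the 2 rows summed it was 0.72 (adjusted p = 0.343 by the same edgeR test).

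PROM1 was likewise low in pXEN cells. It stood at 0.315, 1.44 and 0.626 FPKM in the pXEN lines, 10.3 and 13.6 in the naïve-like lines, and 25.3 and 23.5 in the primed lines. No pXEN library came near an ESC library, and pXEN line 2, with 48 counts against 9 and 20, was the highest of its group. The log2 fold change was −3.89 (SE 0.42, adjusted p = 0.000142) against naïve-like and −4.90 (SE 0.42, adjusted p = 6.46e-05) against primed cells. Without pXEN line 2 these were −4.64 and −5.66. Primed cells exceeded naïve-like cells by 1.01 (SE 0.39) with an adjusted p of 0.0846, which did not pass, although the lines did not overlap. The adjusted p of this difference was 0.00215 when pXEN line 2 was left out of the shared estimate of spread and 0.00186 when all pXEN lines were. PROM1 (ENSSSCG00000008745) lies on the minus strand of chromosome 8 at 10866626 to 10960945.

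ALPL was highest in primed cells, intermediate in pXEN cells and lowest in naïve-like cells. Its levels were 59.7, 47.3 and 55.9 FPKM in the pXEN lines, 2.62 and 6.05 in the naïve-like lines, and 154 and 152 in the primed lines. The 3 groups were separate. Primed cells exceeded naïve-like cells by a log2 fold change of 5.13 (SE 0.33, adjusted p = 4.19e-05), pXEN cells exceeded naïve-like cells by 3.64 (SE 0.31, adjusted p = 3.97e-05), and pXEN cells were below primed cells by −1.48 (SE 0.24, adjusted p = 0.00159). Without the second naïve-like line the first 2 values were 5.85 and 4.37. The trophectoderm gene TFAP2C, with 1553 and 1519 counts in the primed lines and at most 18 elsewhere, was also highest in primed cells. ELF5 of the same list had 0 counts there. The part of such cells in the primed levels of ALPL, CXCR4 and CD44 was not tested. The gene ALPL lies on the unplaced scaffold GL893988.2, plus strand, 13511 to 34171.

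DPP4, the other ectoenzyme, was close to the detection limit. The pXEN lines gave 10, 12 and 1 counts, both naïve-like lines 0, and the primed lines 0 and 1. Only pXEN lines 1 and 2 exceeded 3 counts, and line 3 was at the level of the ESCs. Taking 3 counts per library as the limit, pXEN cells were at least 2.84-fold higher than naïve-like cells and by summed counts they were 18.7-fold (95% exact counting interval 3.03 to 769) above primed cells. The adjusted p of the first difference was 0.032 and that of the second 0.0604, but the gene could be tested only because of its pXEN reads, so the call is no evidence of a difference. It was lost without any 1 of the ESC libraries, with adjusted p between 0.0545 and 0.122, and by limma, and without pXEN line 1 or line 2 the gene had too few reads to be tested. At this depth neither the presence nor the absence of DPP4 in ESCs could be shown. The gene lies on the minus strand of chromosome 15 at 76152548 to 76235571.

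CXCR4 was highest in primed cells. It stood at 3.27, 2.76 and 6.44 FPKM in the pXEN lines, 5.92 and 16.0 in the naïve-like lines, and 48.7 and 45.7 in the primed lines. The primed lines lay apart, while pXEN line 3 was above the lower naïve-like line. Against primed cells pXEN cells were lower by a log2 fold change of −3.50 (SE 0.45, adjusted p = 0.000465), and primed cells exceeded naïve-like cells by 2.09 (SE 0.48, adjusted p = 0.013). The difference between pXEN and naïve-like cells, −1.40 (SE 0.45, adjusted p = 0.03), was lost in 8 of 16 other settings, and was −0.51 (adjusted p = 0.369) without the second naïve-like line and −1.16 (adjusted p = 0.0502) without pXEN line 2. That between primed and naïve-like cells was lost without the first naïve-like line (1.55, adjusted p = 0.0591) or without either primed line (adjusted p = 0.0648 and 0.0571), and was 2.98 without the second naïve-like line. CXCR4 lies on the plus strand of chromosome 15 at 18124941 to 18128996.

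CD44 separated the primed lines from the rest. Its levels were 1.88, 4.15 and 1.43 FPKM in the pXEN lines, 2.05 and 1.10 in the naïve-like lines, and 9.24 and 14.0 in the primed lines. The pXEN and naïve-like lines overlapped, and pXEN line 2 was the highest among those 5. Primed cells exceeded naïve-like cells by a log2 fold change of 2.87 (SE 0.53, adjusted p = 0.00521), and pXEN cells were below primed cells by −2.21 (SE 0.45, adjusted p = 0.00455), or −2.81 (adjusted p = 0.000117) without pXEN line 2. The value for pXEN over naïve-like cells was 0.66 (SE 0.49, adjusted p = 0.29) with line 2 and 0.05 (adjusted p = 0.913) without it. CD44 lies on chromosome 2, minus strand, at 28156392 to 28374853.

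THY1 was the one member called in no comparison, a state shared by 31.4% of all tested genes. It stood at 1.36, 5.03 and 1.22 FPKM in the pXEN lines, 0.734 and 0.915 in the naïve-like lines, and 1.31 and 1.29 in the primed lines. Line 2 of the pXEN cells was well above all 6 other libraries, and the other pXEN lines were on either side of the primed lines. The log2 fold change was 1.62 (SE 0.67, adjusted p = 0.0731) for pXEN over naïve-like cells and 0.98 (SE 0.64, adjusted p = 0.242) for pXEN over primed cells. Without pXEN line 2 they were 0.63 (adjusted p = 0.18) and −0.01 (adjusted p = 0.989). DESeq2 called the first of these, at an adjusted p of 0.0437, and 4 of 16 other settings called it in all. THY1 lies on chromosome 9, minus strand, at 51638997 to 51644318.

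**Figure D3:**
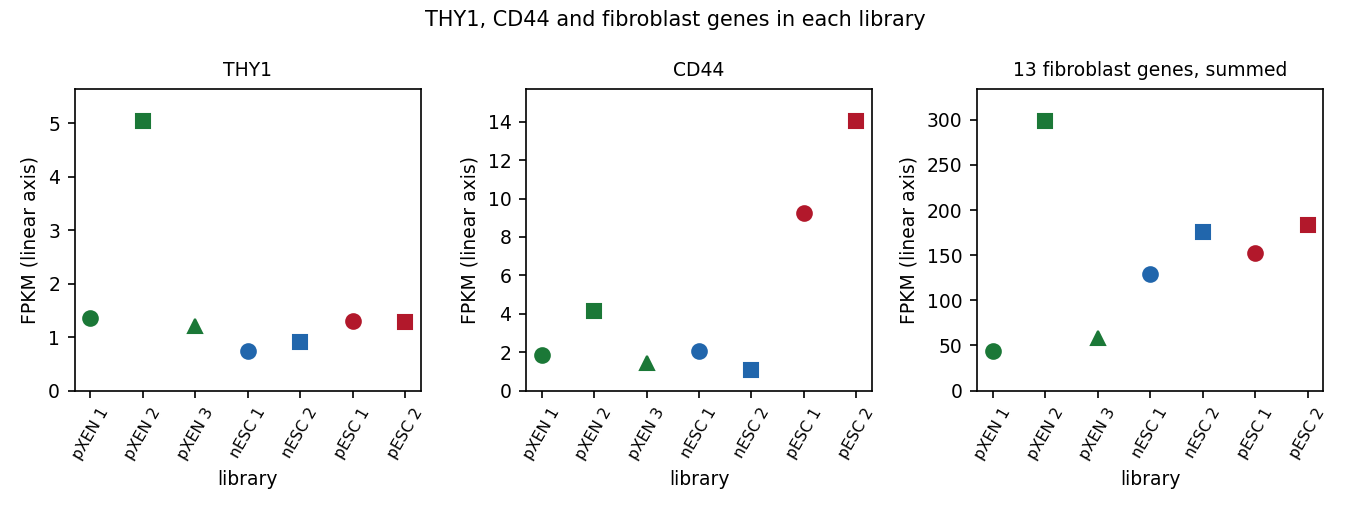
FPKM of THY1, of CD44 and of 13 fibroblast genes summed, in each of the 7 libraries on linear axes that start at 0 (green pXEN, blue naïve-like ESC, red primed ESC lines). THY1 and the fibroblast sum are highest in pXEN line 2, whereas CD44 is highest in the 2 primed lines.

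The spread among the pXEN lines themselves was uneven. The ratio of the highest to the lowest pXEN line was 1.03 for EPCAM, 1.18 for PODXL, 1.26 for ALPL and 1.40 for CD24, and 2.34 for CXCR4, 2.91 for CD44, 4.14 for THY1 and 4.57 for PROM1. Over 15027 genes, those whose mean count in these lines was 10 or more, the median ratio was 1.37, and 18.0% had a ratio above 2. Among the pXEN lines, line 2, the library with the most fibroblast counts, was highest for THY1, CD44 and PROM1, and also for CD24, for DPP4 with 12 counts against 10 and 1, and for CD9 with its 1 count. PODXL, EPCAM and ALPL were lowest there, as was CXCR4. In that library COL3A1, a fibrillar collagen of mesenchymal cells, reached 4251 counts, against 20 and 203 in the other pXEN lines. More than 3 counts were found for 8, 11 and 10 of the 13 fibroblast genes in the pXEN lines in order, for 6 and 8 in the naïve-like and for 11 and 12 in the primed lines. LUM and DCN were at 0 in both naïve-like lines, and COL1A1 in the first of them. Summed, they reached 298 FPKM in pXEN line 2, 44.1 and 57.9 in lines 1 and 3, 129 and 175 in the naïve-like lines and 152 and 184 in the primed lines. The part of such cells in the values of line 2 was not tested.

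CXCR4 and CD44 are also expressed by leukocytes. Their defining surface gene PTPRC had 0 counts in all pXEN and both primed libraries. All 6 leukocyte genes checked summed to 315 and 229 counts in the primed lines, with 4 and 3 of them above 3 counts, and to between 0 and 24 counts elsewhere. Most of the primed sum was ITGB2, with 265 and 185 counts there and at most 4 elsewhere. CORO1A had 31 and 32 counts in the primed lines and at most 7 elsewhere. The part of such cells in the primed levels of CXCR4 and CD44 was not tested. CXCL12, the ligand of CXCR4, was too low to be tested, with at most 0.352 FPKM in any library. ACKR3, the other receptor of CXCL12, stood at 0.0798 ± 0.138 FPKM in pXEN cells (n = 3), 4.08 ± 0.546 in naïve-like cells (n = 2) and 4.10 ± 0.456 in primed cells (n = 2). Its 3 counts in pXEN cells were all in line 2, and lines 1 and 3 had 0. It was lower in pXEN cells than in both ESC types (adjusted p = 0.000652 and 0.000813). Between the 2 ESC types the fitted difference of ACKR3 was −0.004 (SE 0.60, adjusted p = 1.0).

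Within a cell type, FPKM set the members in an order that differed from type to type. FPKM divides by the listed gene length, which ranged from 648 bases for CD9 to 6477 for PODXL. In pXEN cells EPCAM and CD24 came first and overlapped, then PODXL, then ALPL, and all others had means below 5 FPKM. Among these lower members CXCR4 overlapped THY1, THY1 overlapped CD44, CD44 overlapped PROM1, and DPP4 overlapped CD9 at the bottom. PROM1 did not overlap DPP4. In naïve-like cells CD24 stood alone at the top, CD9 overlapped PODXL, PROM1 overlapped CXCR4 and CXCR4 overlapped ALPL. ALPL did not overlap CD44 below it. EPCAM, which overlapped THY1, was above only DPP4. In primed cells CD24, PODXL, ALPL and CXCR4 were separate from each other, CD9 overlapped EPCAM, and PROM1, CD44, THY1 and DPP4 followed.

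As a share of the summed FPKM of the 10 genes, CD24 made up 76.9% and 77.5% in the naïve-like lines, 30.4% to 38.9% in the pXEN lines, and 32.4% and 33.8% in the primed lines. EPCAM made up 35.5% to 39.8% in the pXEN lines, 4.09% and 4.07% in the primed lines, and 0.209% and 0.122% in the naïve-like lines. ALPL reached 21.4% and 21.5% in the primed lines and at most 4.73% elsewhere. The pXEN profile was therefore made mainly of CD24, EPCAM and PODXL, the naïve-like profile of CD24, and the primed profile of CD24, PODXL and ALPL. The sum itself was 1183 to 1290 FPKM in pXEN, 297 and 359 in naïve-like and 704 and 718 in primed lines.

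**Figure D4:**
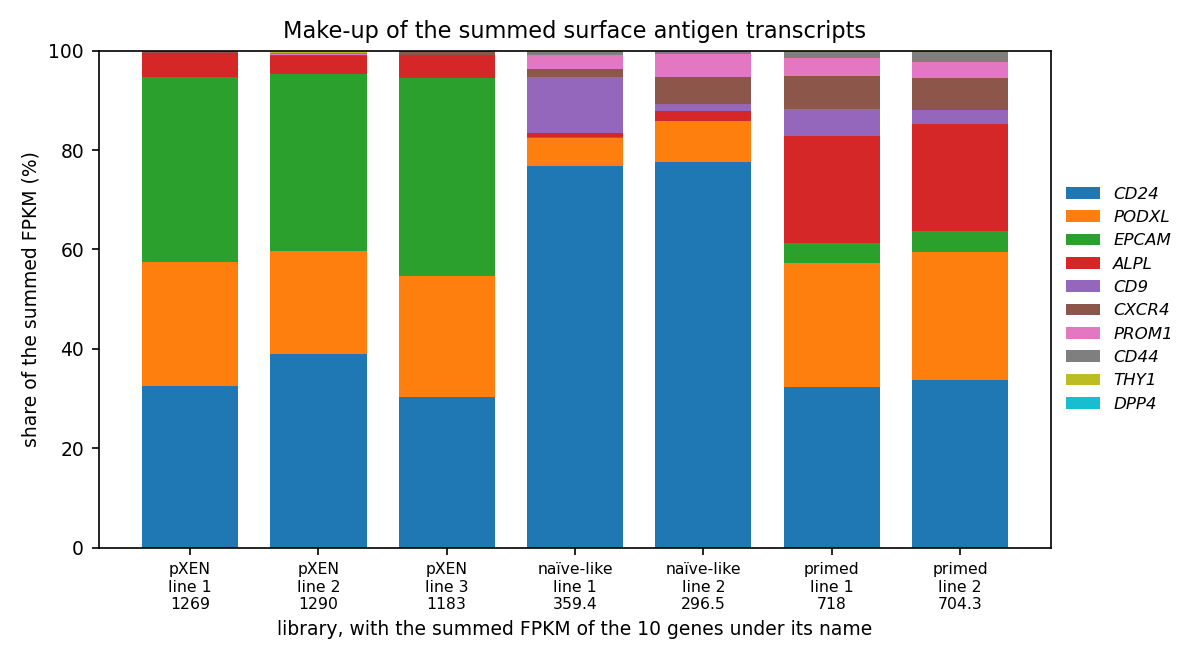
Share of each gene in the summed FPKM of the 10 surface antigen genes, in percent, for each library, with the sum printed under its name. CD24 takes over 76% in the naïve-like lines, EPCAM over 35% only in the pXEN lines, and ALPL over 21% only in the primed lines.

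A ratio of 2 members within a library does not depend on how libraries are scaled. The 8 members with more than 3 counts in every library gave 28 pairs, of which 23 did not overlap between pXEN and naïve-like cells, 22 between pXEN and primed cells and 25 between primed and naïve-like cells. These are 82.1%, 78.6% and 89.3% of the pairs, against 69.7%, 66.3% and 72.6% of all pairs among the 13686 genes above that limit. The widest gap from both ESC types was that of EPCAM to PROM1. This ratio was 1503, 319 and 752 in the pXEN lines, 0.0725 and 0.0267 in the naïve-like lines, and 1.16 and 1.22 in the primed lines. The lowest pXEN line was thus 4398-fold above the highest naïve-like line and 261-fold above the highest primed line. Between the 2 ESC types the widest gap was that of EPCAM to CD24, at 0.126 and 0.120 in the primed lines against 0.00271 and 0.00158 in the naïve-like lines. In the pXEN lines that ratio was 1.15, 0.913 and 1.31. These pairs were chosen for their gaps and are given as a description.

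**Figure D5:**
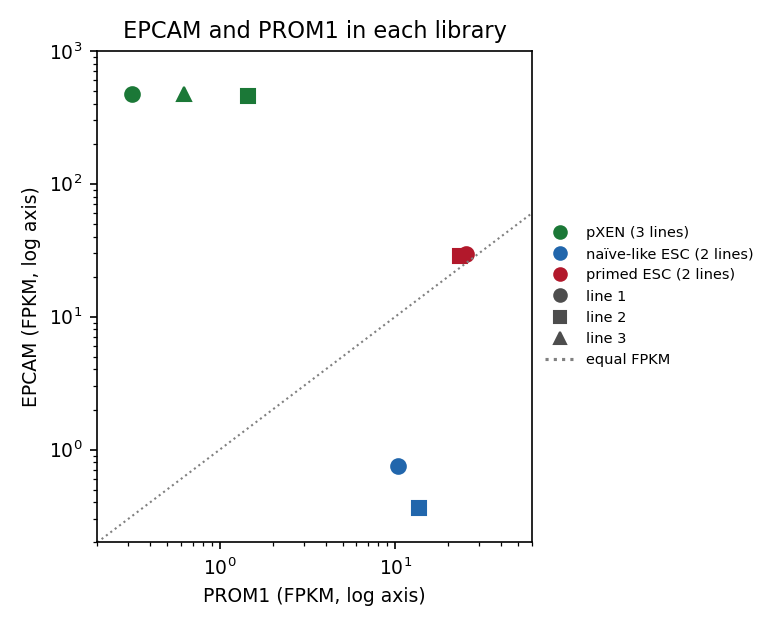
EPCAM against PROM1 in each library, both in FPKM on log axes, with a dotted line where they are equal. The 3 pXEN lines lie at high EPCAM and low PROM1, the 2 naïve-like lines below the dotted line, and the 2 primed lines close to it.

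The counts of the next 4 lists stand beside those of all tested genes, of which 28.3% were higher and 26.2% lower in pXEN than in naïve-like cells, 23.9% and 24.4% in pXEN than in primed cells, and 19.0% and 13.3% in primed than in naïve-like cells. The lists were put together by hand, and no list was tested as a set. With upper-quartile scaling the balance of all genes moved, from 4937 higher and 4577 lower to 4348 and 5621 for pXEN against naïve-like cells, from 4168 and 4261 to 3770 and 4811 for pXEN against primed cells, and from 3308 and 2313 to 3049 and 2882 for primed against naïve-like cells, while the called genes of the first list went to 15 and 3, 13 and 3, and 10 and 1. Of 22 tested genes whose proteins bind, anchor, make ligands for or cut the antigens, 16 were higher and 3 lower in pXEN than in naïve-like cells (median log2 fold change 1.09), 13 were higher and 2 lower than in primed cells (0.67), and 13 were higher and 0 lower in primed than in naïve-like cells (0.62). The shares higher were 72.7%, 59.1% and 59.1%, and the shares lower 13.6%, 9.09% and 0%. CLDN7 and SPP1, counted higher in both pXEN comparisons, passed the filter on low counts only through their pXEN reads. CLDN7 had 508, 98 and 33 counts in the pXEN lines and at most 5 elsewhere. SPP1 had 13, 135 and 20 counts there and at most 7 elsewhere, so these calls are no evidence of a difference. The scaffold protein NHERF1, encoded by SLC9A3R1, which links PODXL to ezrin, had 209 ± 29.3 FPKM in pXEN (n = 3), 15.0 ± 6.14 in naïve-like (n = 2) and 37.0 ± 2.30 in primed cells (n = 2). It was higher in pXEN cells by a log2 fold change of 3.79 (SE 0.27, adjusted p = 1.55e-05) and 2.50 (SE 0.25, adjusted p = 0.000129). EZR, which encodes ezrin itself, was slightly lower in pXEN than in naïve-like cells (−0.35, SE 0.12, adjusted p = 0.0403). Its relative MSN, which encodes moesin, was lower in pXEN than in primed cells (−0.79, SE 0.11, adjusted p = 0.000755) but higher than in naïve-like cells (0.81, SE 0.12, adjusted p = 0.00066). RDX, which encodes radixin of the same family, was higher in pXEN than in primed cells (0.84, SE 0.16, adjusted p = 0.00359).

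HAS2, which makes the CD44 ligand hyaluronan, had 46.2, 13.6 and 45.4 FPKM in the pXEN lines, 0.0376 and 0 in the naïve-like lines and 5.86 and 6.87 in the primed lines. The naïve-like lines held 1 count between them. By summed counts HAS2 was 1787-fold (95% exact counting interval 320 to 70610) higher in pXEN and 330-fold (58.9 to 13070) higher in primed than in naïve-like cells (adjusted p = 8.02e-05 and 0.00157). CD44 itself was called above naïve-like cells in primed cells (2.87) and not in pXEN cells (0.66). ITGB3, listed as CD61, encodes the β chain of an integrin that binds THY1. It had 31.3 ± 3.39 FPKM in pXEN (n = 3), 0.101 ± 0.0231 in naïve-like (n = 2) and 2.96 ± 0.0671 in primed cells (n = 2). Its log2 fold changes were 8.24 (SE 0.21, adjusted p = 3.22e-07) and 3.41 (SE 0.14, adjusted p = 2.79e-06) for pXEN over each ESC type, and 4.83 (SE 0.22, adjusted p = 8.49e-06) for primed over naïve-like cells.

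Of 11 tested genes listed as relatives of the antigens by family or name, 4 were higher and 3 lower in pXEN than in naïve-like cells (median −0.08). Against primed cells 1 was higher and 2 lower in pXEN cells (−0.20). In primed against naïve-like cells 3 were higher and 1 lower (−0.19). The 36.4% higher and 27.3% lower in the first comparison lay near the shares of all genes. DPP6, counted lower in pXEN and in primed than in naïve-like cells, passed the filter only through 44 and 37 naïve-like counts. Elsewhere it had at most 1 count, so those calls are no evidence of a difference. The tetraspanin genes CD151 and CD82 were higher in pXEN than in naïve-like cells, opposite to the tetraspanin gene CD9. CD151 had 74.9 ± 21.1 FPKM in pXEN (n = 3), 4.27 ± 0.296 in naïve-like (n = 2) and 10.7 ± 2.09 in primed cells (n = 2), and its log2 fold changes were 4.13 (SE 0.28, adjusted p = 1.32e-05) and 2.82 (SE 0.26, adjusted p = 8.76e-05) for pXEN over each ESC type. CD82 had 29.4 ± 1.97, 1.08 ± 0.722 and 23.9 ± 1.07 FPKM in the same groups. It was higher in pXEN and in primed than in naïve-like cells (4.76, SE 0.33, adjusted p = 1.48e-05, and 4.45, SE 0.34, adjusted p = 8.44e-05), with 0.31 (SE 0.24, adjusted p = 0.325) for pXEN over primed cells. DPP7, which shares its name stem with DPP4, was lower in pXEN cells (−0.87, SE 0.19, adjusted p = 0.00495, and −0.69, SE 0.19, adjusted p = 0.0172). DPP8 and DPP9 were called in neither pXEN comparison.

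Several stem cell antigens are glycans, made by glycosyltransferases, rather than proteins. Of 16 tested genes of such enzymes, 7 were higher and 8 lower in pXEN than in naïve-like cells (median −0.49), 6 were higher and 6 lower than in primed cells (0.08), and 5 were higher and 2 lower in primed than in naïve-like cells (0.71). In the first comparison 43.8% were higher and 50% lower. Among those counted lower there, CHST1 stayed at or under 3 counts in each library of both cell types. It passed the filter on low counts only through its 100 and 98 primed counts, so its calls are no evidence of a difference. FUT1, which makes the H antigen, had 18.5 ± 3.77 FPKM in pXEN (n = 3), 0.529 ± 0.174 in naïve-like (n = 2) and 1.68 ± 0.721 in primed cells (n = 2), and was higher in pXEN cells by 5.11 (SE 0.38, adjusted p = 1.96e-05) and 3.47 (SE 0.33, adjusted p = 0.000104). B3GNT2, listed without a symbol and found by its Ensembl gene, which extends poly-N-acetyllactosamine chains, was higher in pXEN and in primed than in naïve-like cells (3.67, SE 0.29, adjusted p = 2.65e-05, and 2.04, SE 0.30, adjusted p = 0.00176). GCNT2, the branching enzyme of the I antigen, had 15.7 and 15.6 FPKM in the primed lines and at most 0.877 in any other library, so that pXEN cells were lower than primed cells by −5.73 (SE 0.31, adjusted p = 7.47e-06). B3GAT1, which makes the HNK-1 epitope, was 93.0-fold (95% exact counting interval 39.5 to 288) higher in naïve-like and 99.6-fold (42.3 to 308) higher in primed than in pXEN cells by summed counts.

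Of 24 other tested surface antigen genes, 14 were higher and 5 lower in pXEN than in naïve-like cells (median 1.21), 12 were higher and 7 lower than in primed cells (0.60), and 16 were higher and 1 lower in primed than in naïve-like cells (1.74). The shares higher were 58.3%, 50% and 66.7%, and the shares lower 20.8%, 29.2% and 4.17%. VCAM1, counted higher in both pXEN comparisons, had 504, 106 and 1443 counts in the pXEN lines and at most 2 elsewhere. It passed the filter on low counts only through its pXEN reads, so those calls are no evidence of a difference. GPC3, a membrane heparan sulfate proteoglycan, had 878 ± 179 FPKM in pXEN cells (n = 3), 0.543 ± 0.153 in naïve-like cells (n = 2) and 2.48 ± 0.361 in primed cells (n = 2), and exceeded primed cells by 8.47 (SE 0.27, adjusted p = 1.58e-06). SUSD2, a marker of human naïve pluripotent cells, had 53.4, 29.3 and 52.2 FPKM in the pXEN lines, 0.0136 and 0.0283 in the porcine naïve-like lines and 0.916 and 0.845 in the primed lines. The naïve-like lines held 3 SUSD2 counts in all, and pXEN cells were 2129-fold (95% exact counting interval 728 to 10320) higher by summed counts. The neural adhesion genes NCAM1 and L1CAM were lower in pXEN than in naïve-like cells (−2.89, SE 0.28, adjusted p = 8e-05, and −2.45, SE 0.42, adjusted p = 0.00155) and than in primed cells (−5.10, SE 0.29, adjusted p = 1e-05, and −4.33, SE 0.41, adjusted p = 0.000106). CD55, a complement regulator, had 47.9 and 38.1 FPKM in the primed lines, 7.63 to 12.3 FPKM in the pXEN lines, but 0 and 0.228 FPKM in the naïve-like lines.

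For each member except DPP4, the genes with the most similar course over the 7 libraries were sought among 8931 genes of sufficient level, by the root mean square difference of log2 CPM after each gene was centred on its own mean. Nearest to EPCAM were COL4A1 (0.22), COL4A2 (0.40) and NID1 (0.48), which encode basement membrane proteins. COL4A1 averaged 1120 FPKM in pXEN, 1.07 in naïve-like and 59.1 in primed cells, against 467, 0.556 and 29.0 for EPCAM. The genes nearest to PODXL were ZNF114 (0.16), PRR5L (0.22) and SYT12 (0.23), and those nearest to CD24 were TALDO1 (0.07), CDC2 (0.08) and ATP6V0E1 (0.08). CD9, whose values in pXEN cells rested on the prior count of 2 added before logs were taken, had no close companion, its nearest genes being SEMA6D (0.80), CAMKV (0.84) and PFKP (0.94).

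The other members had neighbours at intermediate distances. For PROM1 these were TMEM63A (0.25), GALNT16 (0.29) and FYN (0.33), and for ALPL they were TSPAN1 (0.34), RNF213 (0.40) and ITM2A (0.41), of which TSPAN1 encodes another tetraspanin. CXCR4 was nearest to TMEM55A (0.28), N4BP3 (0.48) and EIF2AK2 (0.48), CD44 to GLRX (0.28), OSTF1 (0.37) and VIMP (0.38), and THY1 to CADPS2 (0.26), MSMB (0.31) and RGS3 (0.32). No neighbours are given for DPP4, whose 0 or 1 count in 5 of the 7 libraries left its values there to the prior count. No member was among the 3 nearest genes of another. The closest pair of members was CD24 with THY1 (0.57), which differed in level, with 424 and 2.54 FPKM in pXEN cells. With 7 libraries in 3 groups, genes that share an order of the cell types lie near each other, so the distances are given as a description.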

How the data were processed

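RNA sequencing of 7 porcine lines was used as deposited. The libraries were directional and rRNA-depleted. The submitters' processing notes name HISAT2 2.0.5, featureCounts 1.5.0-p3, edgeR 3.22.5 and the build Sscrofa 10.2. The strand setting of the counting and the treatment of multiply mapped reads are not given in the sources used here. The authors deposited read counts per gene without normalization, and FPKM values that, as checked on the files, equal each count divided by the listed length and by 1 total per library, 0.913 to 1.08 times the count total.

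From these, counts were tested in R 4.3.3 with edgeR 4.0.16 (filterByExpr, TMM, quasi-likelihood F test, 1 fit of all 7 libraries, Benjamini-Hochberg adjustment over 17447 genes). The biological coefficient of variation was 0.223. FPKM served for levels. Log2 CPM used a prior count of 2. Alternatives were DESeq2 1.42.0, limma 3.58.1 on log2(FPKM + 0.1 or 1), upper-quartile scaling, other filters, a replicate block, fits of only the groups compared and leaving out each library. The summed CD9 rows and the members listed by symbol were added after the data were seen. Libraries of a group were compared to look for duplicate deposits, and none agreed within sampling noise (chi-square per degree of freedom 6.58 to 39.5).

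The members and the gene lists were chosen with earlier results of these data known. All 10 members were named. From each list of partners, relatives, glycan enzymes and other antigens, up to 2 called genes with the highest and 2 with the lowest log2 fold change per comparison could be named, among genes with a mean log2 CPM of at least 1, with a further gene where it acts on a member. Count ratios were scaled by the TMM-adjusted totals.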

Additional observations from a re-analysis of the deposited data

How the results depend on the processing

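Of 30 values (10 genes in 3 comparisons), 9 changed side of the threshold or sign in at least 1 of 16 other settings. Those that changed sign were not called with all libraries. Leaving out 1 library at a time, CD24 in primed over naïve-like cells ranged from −0.243 to 0.014 (the latter without the first naïve-like line), CD9 in the same comparison from −0.466 (without the second naïve-like line) to 2.84 (without the first, and then called), with −0.17 without the first primed line, and THY1 in pXEN over primed cells from −0.0079 (without pXEN line 2) to 1.32. The cause was not tested. With at least 10 counts required in every library, CD9, EPCAM, PROM1 and DPP4 were left out and 6 members were tested. Of these, 4 were called between pXEN and naïve-like cells and 5 between pXEN and primed cells. Between primed and naïve-like cells 4 were called. Of all 12261 genes then tested, 6690, 5648 and 3878 were called. Leaving out 1 library at a time gave 6 to 9 members for pXEN against naïve-like, 8 to 9 for pXEN against primed and 4 to 6 for primed against naïve-like cells. The same gave 7287 to 10359, 5553 to 9566 and 2965 to 7566 of all genes, against 9514, 8429 and 5621 with all libraries.

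PROM1 between primed and naïve-like cells was called by limma with a pseudocount of 1 (adjusted p = 0.0448), and DPP4 between pXEN and primed cells without pXEN line 3 (adjusted p = 0.0172). Upper-quartile scaling moved the median of all genes to −0.16 (log2) for pXEN against naïve-like cells, and no direction or call of a member changed with it. Line numbers did not pair the samples (correlations of deviations −0.0089 to 0.0442). With the replicate block 8274, 6993 and 5041 genes and 9, 8 and 5 members were called, the added member being THY1 in pXEN over naïve-like cells (1.79, adjusted p = 0.0427). Small counts limit DPP4 and, in pXEN cells, CD9.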
